A study of Mus musculus with 10 samples.

Results

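Small nucleolar RNAs (snoRNAs) and small Cajal body RNAs (scaRNAs) were examined in mouse embryonic stem cells, taking every gene of the expression table whose name starts with Snord, Snora or Scarna and whose mean over the 7 libraries was at least 10 normalized counts. This rule gave 60 of 54456 genes: 39 C/D box RNAs, 16 H/ACA box RNAs and 5 Cajal body RNAs. A normalized count is the number of reads assigned to a gene divided by the size factor of its library. The table named 149 genes with these prefixes, of which 74 had a value above 0 in at least 1 library. The names comprised 104 C/D box genes, 37 H/ACA box genes and 8 Cajal body genes. Just inside the minimum lay Snord37 with a mean of 12.2 and Snord98 with 10.9 normalized counts, and just outside it lay Scarna8 with 9.35 and Snora20 with 9.03.

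The libraries were stranded total RNA depleted of ribosomal RNA, from C57BL/6J stem cells grown on gelatin in serum with LIF and 2 kinase inhibitors, CHIR99021 against GSK3 and PD0325901 against MEK. The groups were conv-dSVA_F&D (2 libraries), conv-dSVA_F (2), conv-dSVA_D (2) and the wild-type line MK6 (1). All 3 converted groups carried a loxP site in a Taf1 intron, a Taf1 allele rebuilt with a partly mousified human segment, and a treatment with a Cre plasmid (pCAGiCre). They differed in the SVA retrotransposon insertion deleted from that segment: SVA_F, SVA_D, or both. The genotype labels also list Cas9 plasmids and a marker cassette for the converted groups. The labels give 1 genotype string per group and no clone, so genotype and clone cannot be told apart. Separate cultures are not named for replicates, and a p-value here measures only the spread between libraries, which may be technical. The pre-conversion XDP library and the 2 striatal libraries of the 10 samples were not analysed here.

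Taf1, the edited gene, was at 1116 and 1088 normalized counts in conv-dSVA_F&D, 501 and 589 in conv-dSVA_F, 362 and 418 in conv-dSVA_D, and 2898 in the wild type. Reads assigned to genes ranged from 16588467 (conv-dSVA_F&D replicate 2) to 26562418 (conv-dSVA_D replicate 2). A value of 0 in 1 library allows up to 3 reads, equal to 2.45 to 4.18 normalized counts. The libraries carry no molecular identifiers, so such limits and the intervals given here cover counting error only. Of 10 stem cell markers, 10 averaged at least 10 normalized counts. Fewer cells of a type and less RNA per cell cannot be told apart in these bulk libraries.

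C/D box snoRNAs are bound by fibrillarin and partner proteins and guide 2′-O-methylation, mainly of ribosomal RNA. H/ACA box snoRNAs are bound by dyskerin and partner proteins and guide pseudouridylation. Cajal body RNAs carry either or both kinds of box and guide the same modifications on spliceosomal snRNAs. A few members act in cutting the ribosomal RNA precursor rather than in modifying it. Most are released from introns of host genes, many of which encode ribosomal proteins or belong to the Snhg long noncoding RNAs.

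The sequences of the RNAs on which the results turn are the annotated transcripts of GENCODE M21 on GRCm38. The H/ACA box snoRNAs that passed a test, with the near-identical Snora73a beside Snora73b, are shown first. Capitals mark the ACA box near the 3′ end and, where a match lay well inside the RNA, the H box (letters ANANNA, the match nearest the middle); no H box was marked in Snora78.
Snora73b: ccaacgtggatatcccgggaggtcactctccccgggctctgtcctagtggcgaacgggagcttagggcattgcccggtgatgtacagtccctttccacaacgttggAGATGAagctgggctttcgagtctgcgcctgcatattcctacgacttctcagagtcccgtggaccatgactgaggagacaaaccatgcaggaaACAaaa
Snora73a: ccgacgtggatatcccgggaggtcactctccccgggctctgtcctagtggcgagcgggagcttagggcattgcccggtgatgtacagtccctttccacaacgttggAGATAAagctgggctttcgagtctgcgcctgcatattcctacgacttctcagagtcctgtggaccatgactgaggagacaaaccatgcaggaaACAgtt
Snora78: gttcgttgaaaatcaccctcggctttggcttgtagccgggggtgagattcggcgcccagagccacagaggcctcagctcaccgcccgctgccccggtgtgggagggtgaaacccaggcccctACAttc
Snora17: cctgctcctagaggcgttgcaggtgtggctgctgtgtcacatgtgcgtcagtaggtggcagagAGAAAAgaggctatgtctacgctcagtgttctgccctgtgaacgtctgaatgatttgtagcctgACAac
Snora57: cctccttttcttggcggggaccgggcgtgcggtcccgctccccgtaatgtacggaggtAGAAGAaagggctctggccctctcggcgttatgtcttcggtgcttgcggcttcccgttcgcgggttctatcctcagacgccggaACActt
Of the C/D box snoRNAs that passed a test, Snord17, the most abundant of its class, and Snord104 are shown. Capitals mark the C box (TGATGA within the first 30 bases) and the D box (CTGA within the last 15 bases).
Snord17: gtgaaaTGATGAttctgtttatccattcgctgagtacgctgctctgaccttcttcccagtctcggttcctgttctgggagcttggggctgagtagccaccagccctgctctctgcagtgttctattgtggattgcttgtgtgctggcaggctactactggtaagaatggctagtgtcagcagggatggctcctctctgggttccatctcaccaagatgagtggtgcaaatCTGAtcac
Snord104: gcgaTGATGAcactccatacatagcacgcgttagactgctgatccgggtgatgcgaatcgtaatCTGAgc
Scarna13, the Cajal body RNA with the highest mean, is shown with the same H and ACA marks as the H/ACA box snoRNAs.
Scarna13: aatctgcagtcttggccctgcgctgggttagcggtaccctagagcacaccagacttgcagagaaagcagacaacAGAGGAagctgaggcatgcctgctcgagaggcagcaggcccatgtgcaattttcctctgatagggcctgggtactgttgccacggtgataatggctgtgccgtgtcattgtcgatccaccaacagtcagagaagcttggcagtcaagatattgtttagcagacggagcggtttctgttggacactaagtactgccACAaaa

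The printed boxes were also counted over all members with an annotated transcript. The exact C box was present in 23 of 37 C/D box members and the D box in 33 of 37, with both in 22. In the 16 H/ACA box members, 0 held the exact C box and 2 the D box. ACA within the last 8 bases was present in 16 of 16 H/ACA box members and in 4 of 37 C/D box members. Over all 1558 snoRNA and scaRNA transcripts of the annotation, the C box was found in 22.0%, the D box in 30.9% and ACA in 47.6%, on the transcript strand only. Class names taken from the gene symbols therefore matched the letters of every H/ACA box member and of most C/D box members. Snora73a and Snora73b were identical at 198 of 205 positions (96.6%), so reads may have been split between them or dropped, and their separate levels are uncertain. The paralogs Snord49a and Snord49b were identical at 69.2% of aligned positions, and Snord42a and Snord42b at 68.6%.

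Together the members held 0.212% and 0.285% of the reads assigned to genes in conv-dSVA_F&D, 0.246% and 0.206% in conv-dSVA_F, 0.166% and 0.167% in conv-dSVA_D, and 0.371% in the wild type. The wild-type share was above that of every converted library, and both conv-dSVA_D shares were below those of the other converted libraries. H/ACA box RNAs held the most reads of the 3 classes in 7 of 7 libraries. Their share was 0.108% and 0.122% in conv-dSVA_F&D, 0.122% and 0.0929% in conv-dSVA_F, 0.0676% and 0.0685% in conv-dSVA_D, and 0.209% in the wild type. C/D box RNAs held 0.0422% and 0.0648% in conv-dSVA_F&D, 0.0600% and 0.0453% in conv-dSVA_F, 0.0308% and 0.0317% in conv-dSVA_D, and 0.0764% in the wild type. For both of these classes the conv-dSVA_D libraries were lowest and the wild-type library highest. Cajal body RNAs held 0.0625% and 0.0975% in conv-dSVA_F&D, 0.0642% and 0.0677% in conv-dSVA_F, 0.0672% and 0.0670% in conv-dSVA_D, and 0.0862% in the wild type. Here conv-dSVA_D lay within the range of the other converted libraries, and conv-dSVA_F&D replicate 2 was above the wild type. The Wilson 95% intervals of these shares were narrow, for example 0.0301% to 0.0316% for the C/D box share of conv-dSVA_D replicate 1, so the spread between replicates exceeded counting error in conv-dSVA_F&D and conv-dSVA_F. Shares are given as values with no test.

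**Figure D1:**
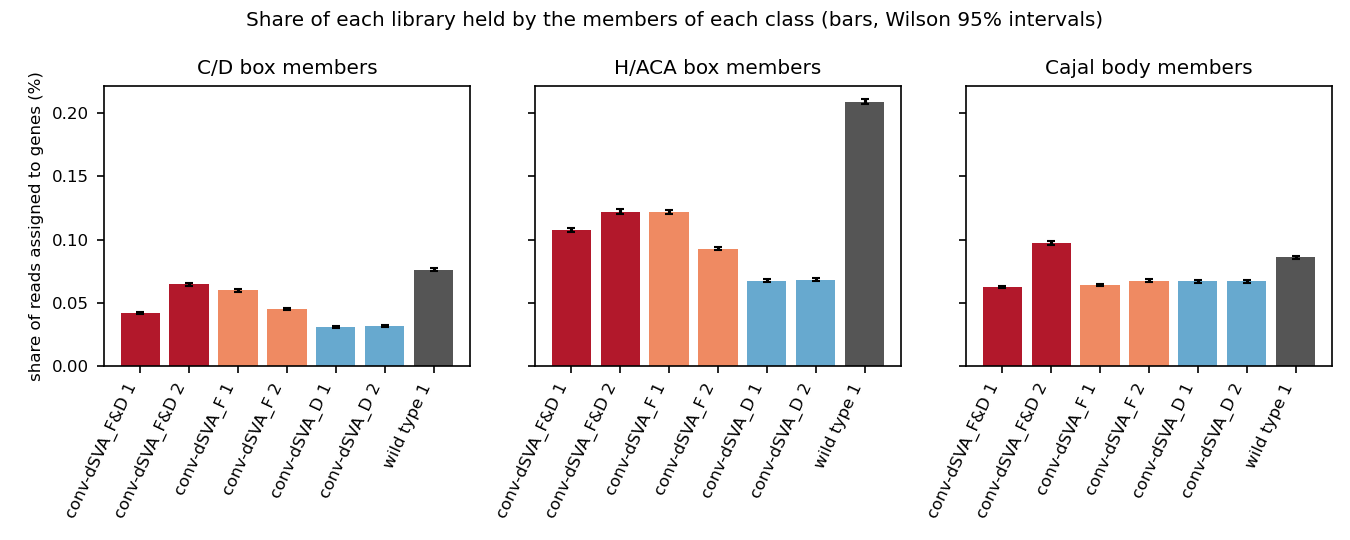
Share of reads assigned to genes (%, vertical axis) held by the C/D box, H/ACA box and Cajal body members in each of the 7 libraries (horizontal axis), with Wilson 95% intervals. The wild-type bar is highest for C/D box (0.0764%) and H/ACA box (0.209%) members, and the conv-dSVA_D bars are lowest for both, whereas Cajal body shares overlap among the converted groups.

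Each class was dominated by 1 RNA. Snora73b held 60.0% to 71.6% of the H/ACA box reads of a library, Snord17 held 33.2% to 43.6% of the C/D box reads and Scarna13 held 49.5% to 65.5% of the Cajal body reads. Per length, the mean over libraries was 8097 normalized counts per 100 bases for Snora73b, 3894 for Snora78, 3512 for Scarna13 and 1821 for Snord17, the 4 highest members on this scale. The class medians per 100 bases were 89.1 for H/ACA box, 66.3 for C/D box and 881 for Cajal body members. The lowest member was Snora47, with 11.5 normalized counts per 100 bases. Over the 60 members the Spearman correlation of annotated length with mean normalized count was 0.58, a description over RNAs of 1 set of libraries in which longer RNAs also offer more positions for a read. Within classes it was 0.43 over 39 C/D box, 0.21 over 16 H/ACA box and 0.80 over 5 Cajal body members. Members of at least 100 bases (28 RNAs) had a median of 280.5 normalized counts per 100 bases, and shorter members (32 RNAs) had 59.2. The annotated span is the unit of these values, and Scarna9 is annotated with only 70 bases.

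Snora73b, an H/ACA box RNA that acts in cleavage of the ribosomal RNA precursor, lies at chr4:132352322-132352526 on the minus strand of GRCm38, in an intron of Rcc1 and within the span of Snhg3. It was at 14845 and 17689 normalized counts in conv-dSVA_F&D, 17565 and 13485 in conv-dSVA_F, 8986 and 8908 in conv-dSVA_D, and 34720 in the wild type. The conv-dSVA_D libraries were the lowest pair, the other converted libraries overlapped each other, and the wild-type library stood above all 6 converted libraries. Snora73a, its neighbour in Rcc1, was at 95.2 and 112.8 normalized counts in conv-dSVA_F&D, 85.1 and 69.1 in conv-dSVA_F, 82.6 and 49.0 in conv-dSVA_D, and 87.3 in the wild type. It did not stand apart in the wild type, and 77.6% of its span lay in annotated exons of Snhg3. Snora78 (chr17:24719676-24719803, minus strand) lies in the long noncoding gene Snhg9. Its level was 5151 and 6422 normalized counts in conv-dSVA_F&D, 4697 and 3873 in conv-dSVA_F, 3390 and 3756 in conv-dSVA_D, and 7598 in the wild type. From low to high its groups followed the order conv-dSVA_D, conv-dSVA_F, conv-dSVA_F&D and wild type, and no library of 1 group fell within another. Snora57 (chr19:8888538-8888685, minus strand) was at 884 and 1173 in conv-dSVA_F&D, 949.6 and 834 in conv-dSVA_F, 665 and 547 in conv-dSVA_D, and 1716 in the wild type. Snora17 (chr2:26639190-26639321, minus strand) was at 602 and 795 normalized counts in conv-dSVA_F&D, 515 and 482 in conv-dSVA_F, 319 and 311 in conv-dSVA_D, and 741 in the wild type. For Snora17 the wild-type library lay between the 2 conv-dSVA_F&D libraries. Snora43, on the same strand within the same stretch of chromosome 2, ranged from 285 in conv-dSVA_D replicate 1 to 986 in the wild type. Snora21, in an intron of the ribosomal protein gene Rpl23, ranged from 302 in conv-dSVA_D replicate 1 to 1021 in the wild type.

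Among C/D box RNAs, Snord17 (chr2:144265979-144266216, minus strand) lies in an intron of Snx5 and guides methylation of the large-subunit ribosomal RNA. It was at 3400 and 6266 normalized counts in conv-dSVA_F&D, 4503 and 3867 in conv-dSVA_F, 2279 and 2283 in conv-dSVA_D, and 7735 in the wild type. Replicates of conv-dSVA_F&D differed more than the group means of conv-dSVA_F&D (4833 ± 2027, SD, n = 2) and conv-dSVA_F (4185 ± 449.5, SD, n = 2). Snord104 (chr11:106500993-106501062, plus strand) was at 520.1 and 684 in conv-dSVA_F&D, 487 and 470.2 in conv-dSVA_F, 305 and 308 in conv-dSVA_D, and 861 in the wild type. Its groups did not overlap and had the same order as those of Snora78. Snord15a, in the ribosomal protein gene Rps3, ranged from 913 in conv-dSVA_D replicate 1 to 2405 in the wild type. Snord94 (chr6:71882557-71882693, from RefSeq on GRCm38.p6), which guides methylation of a spliceosomal snRNA, was at 459.6 and 527 normalized counts in conv-dSVA_F&D, 705 and 469 in conv-dSVA_F, 433 and 398 in conv-dSVA_D, and 1129 in the wild type. For Snord94 the wild-type library lay above all 6 converted libraries, and both conv-dSVA_D libraries lay below the other converted libraries. Snord83b, in Rpl3, ranged from 283 in conv-dSVA_D replicate 2 to 644 in the wild type.

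The C/D box RNAs Snord13 and Snord118 are known to be transcribed from their own promoters. Snord13, which directs acetylation of the small-subunit ribosomal RNA, was at 1117 and 1603 normalized counts in conv-dSVA_F&D, 1880 and 1064 in conv-dSVA_F, 739 and 749 in conv-dSVA_D, and 1312 in the wild type. The wild type lay within the converted range for Snord13. The median difference from the wild type over 798 genes of chromosome 8 was 0.01 and 0.00 (log2) in conv-dSVA_F&D. It was 0.66 in conv-dSVA_F replicate 1 and 0.47 in replicate 2, and in conv-dSVA_D it was 0.05 and 0.25. The part of this shift in the Snord13 values was not tested. Snord118, which acts in processing of the large-subunit ribosomal RNA, was at 184 and 540.5 in conv-dSVA_F&D, 415 and 402 in conv-dSVA_F, 349 and 357 in conv-dSVA_D, and 391 in the wild type. Its 2 extremes were both conv-dSVA_F&D libraries, and its fitted difference between converted groups and wild type was -0.13 ± 0.42 (log2, standard error).

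**Figure D2:**
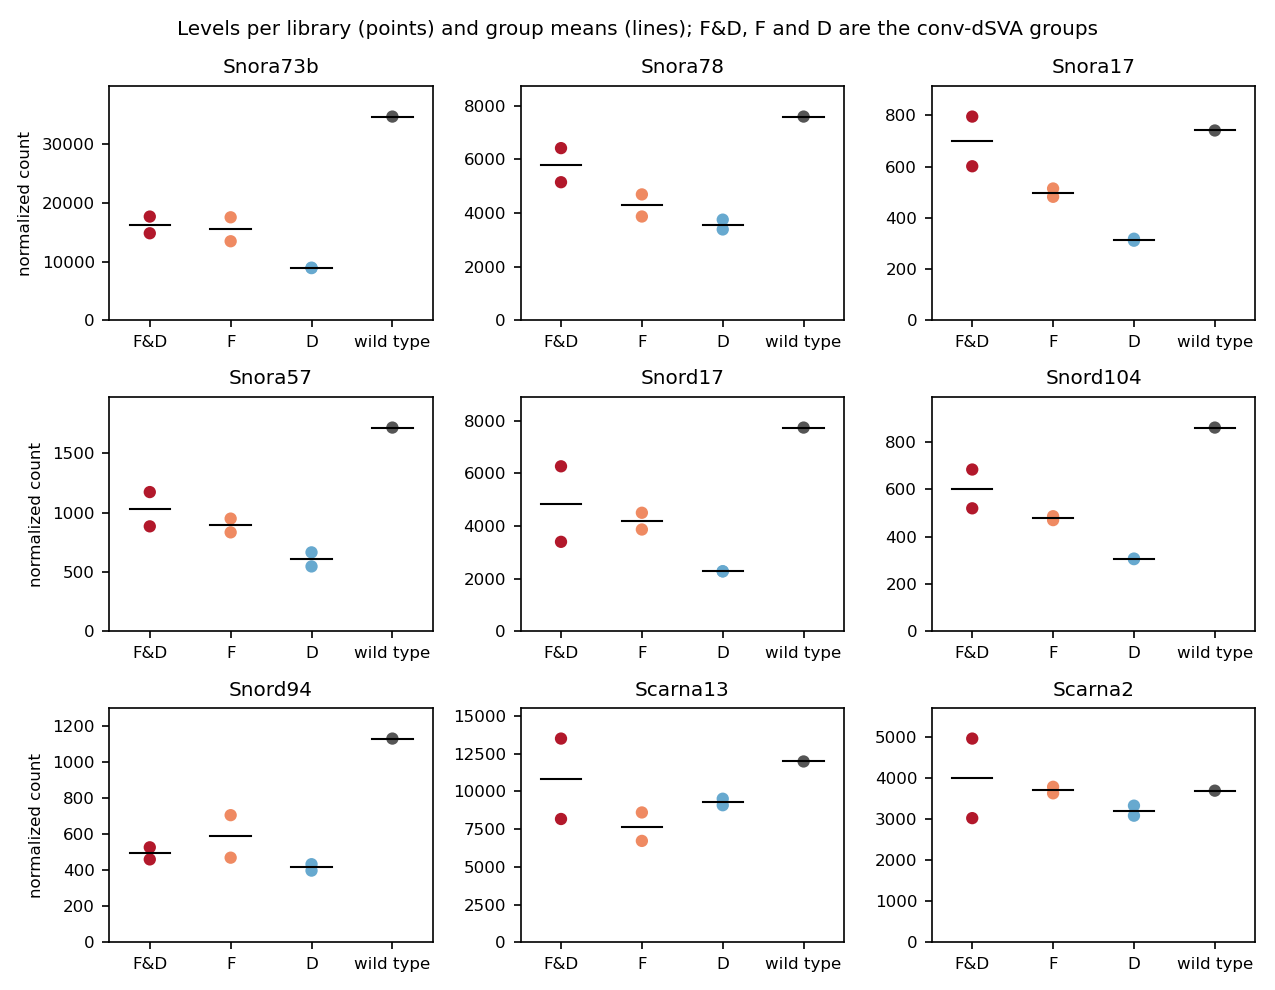
Normalized count (vertical axis, starting at 0) of 9 RNAs in each library (points), by group (horizontal axis), with lines at the group means. Snora73b is at 34720 in the wild-type library and between 8908 and 17689 in the converted libraries, whereas for Scarna2 and Scarna13 the wild-type value lies within the range of the converted libraries.

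Among Cajal body RNAs, Scarna13, held by Snhg10, was at 8175 and 13503 normalized counts in conv-dSVA_F&D, 6725 and 8609 in conv-dSVA_F, 9088 and 9518 in conv-dSVA_D, and 11987 in the wild type. Its highest value was in conv-dSVA_F&D replicate 2, not in the wild type, and conv-dSVA_D lay above conv-dSVA_F. Scarna2, which is known to have its own promoter, was at 3027 and 4965 in conv-dSVA_F&D, 3632 and 3790.0 in conv-dSVA_F, 3331 and 3087 in conv-dSVA_D, and 3696 in the wild type. Among members with a mean of at least 50, Scarna2 had the smallest spread over libraries (SD 0.24 on the log2 scale), followed by Snord73b (0.28) and Scarna13 (0.34). Scarna6, in Atg16l1, ranged from 1752 in conv-dSVA_D replicate 2 to 4112 in the wild type, and its wild-type value was above all converted values. Scarna9, in Cep295, was at 67.8 and 93.3 in conv-dSVA_F&D, 200.8 and 142 in conv-dSVA_F, 104.7 and 132 in conv-dSVA_D, and 136 in the wild type, with conv-dSVA_F&D lowest. The largest spreads were those of Snora15 (SD 1.22), Snord35a (0.95) and Snord65 (0.91). Snora15 was at 68.7 and 20.9 normalized counts in conv-dSVA_F&D, 118 and 58.9 in conv-dSVA_F, 65.3 and 55.5 in conv-dSVA_D, and 350.4 in the wild type, and 77.9% of its span lay in annotated exons of Cct6a. Reads of spliced Cct6a transcripts that cover this span cannot be told apart from Snora15.

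Across the 60 members, the highest of the 7 values was in the wild-type library for 35 members, against 19.0% of all 15240 genes tested. It was in conv-dSVA_F&D replicate 2 for 14 members (23.3%, against 16.3% of all genes) and in a conv-dSVA_D library for 2. The lowest value was in conv-dSVA_D replicate 1 for 24 members and in conv-dSVA_D replicate 2 for 16, against 14.6% and 10.3% of all genes. By class, the wild type was highest for 13 of 16 H/ACA box, 21 of 39 C/D box and 1 of 5 Cajal body members. Replicates also differed along this axis. In conv-dSVA_F&D, 45 members were higher in replicate 2 than in replicate 1, with a median log2 ratio of 0.40. In conv-dSVA_F, 50 members were lower in replicate 2, with a median of -0.41. In conv-dSVA_D the median was 0.02. Over all genes tested the same median was -0.01 in conv-dSVA_F&D and 0.00 in conv-dSVA_D. The groups thus had unequal replicate spread for these RNAs, while the test uses 1 spread per gene for all groups.

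**Figure D3:**
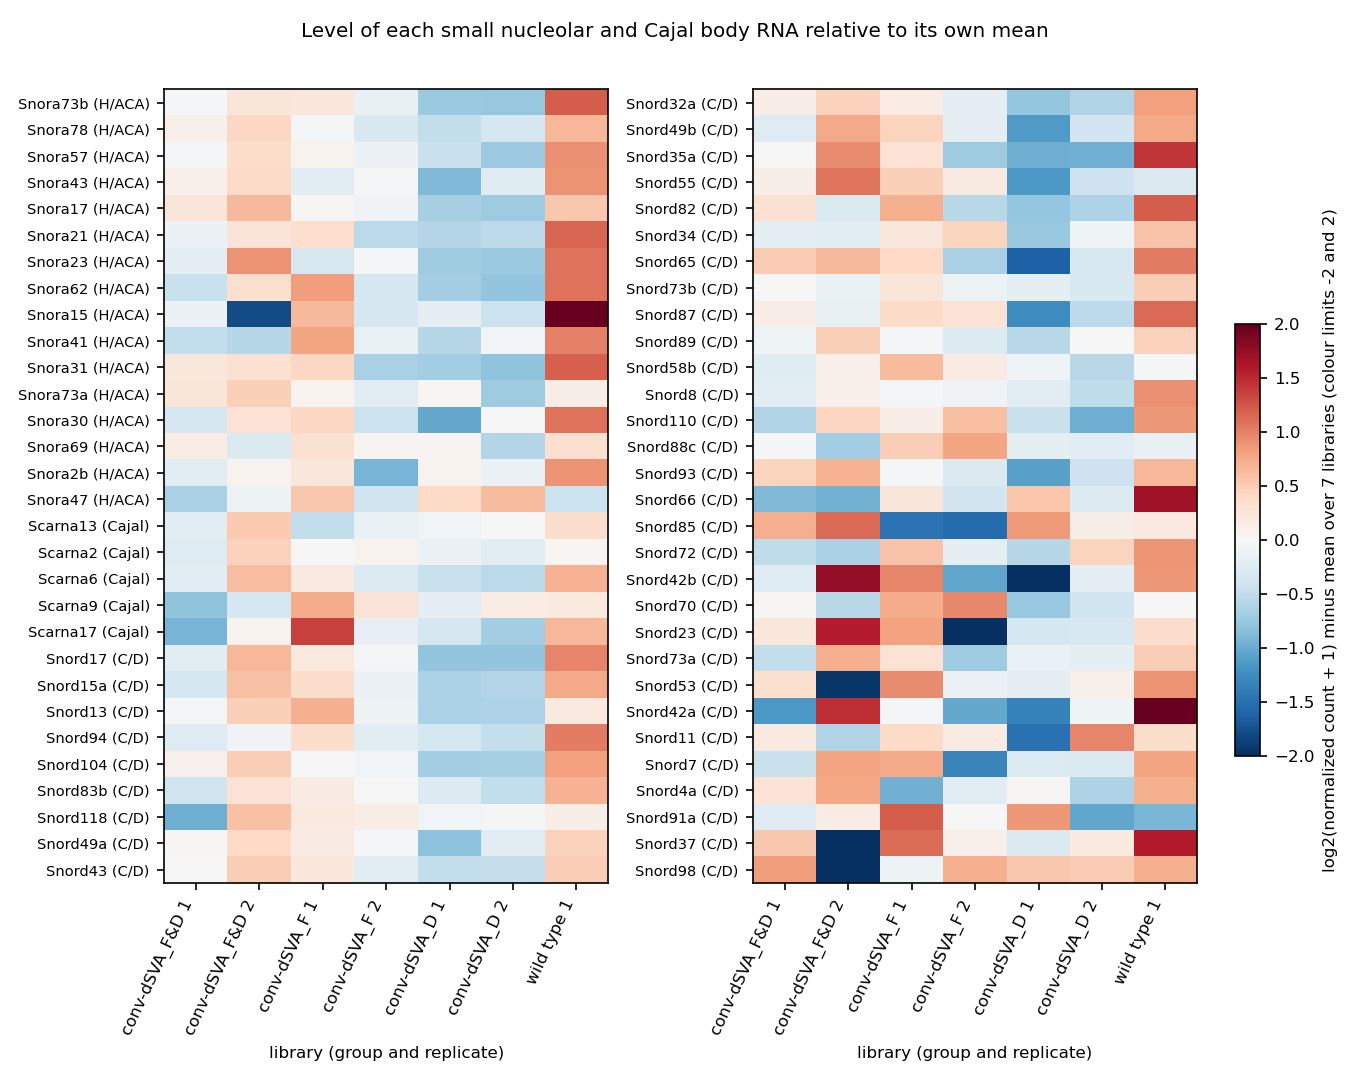
Level of each of the 60 members (rows) in each library (columns) as log2(normalized count + 1) minus the mean of that member over the 7 libraries, with colour limits of -2 and 2. The wild-type column is the highest for 35 members, conv-dSVA_D replicates 1 and 2 are the lowest for 24 and 16, and conv-dSVA_F&D replicate 2 and conv-dSVA_F replicate 1 are mostly above their partners.

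Comparing conv-dSVA_F&D with conv-dSVA_D asks what differs when SVA_F is deleted as well as SVA_D. For 3 H/ACA box and 2 C/D box RNAs the level was higher in conv-dSVA_F&D by the limma test (Benjamini-Hochberg over 15240 genes, adjusted p under 0.05), and 0 of 60 members were lower. At an unadjusted p under 0.05 there were 21 higher and 0 lower members, against 10.7% and 9.11% of all genes, and edgeR and DESeq2 also called 0 lower. The share of all genes called higher at the adjusted threshold was 1.96% and called lower 1.21%. Snora17 was higher by 1.13 ± 0.18 (log2 ± standard error, adjusted p = 0.0161), Snora73b by 0.86 ± 0.15 (adjusted p = 0.0186), Snord104 by 0.96 ± 0.18 (adjusted p = 0.0264), Snora78 by 0.69 ± 0.14 (adjusted p = 0.0372) and Snord17 by 1.02 ± 0.23 (adjusted p = 0.0474). In each of these 5 RNAs the conv-dSVA_F&D libraries lay above the conv-dSVA_D libraries. The median difference of the 60 members was 0.55 (0.00 over all genes tested), with 48 positive. Class medians were 0.68 for H/ACA box, 0.47 for C/D box and 0.18 for Cajal body members. The groups did not overlap for 29 members that were higher and 3 that were lower in conv-dSVA_F&D, against 25.1% and 24.8% of all genes. The 3 lower members were Scarna9 (-0.56 ± 0.33), Snord66 (-1.06 ± 0.56) and Snora47 (-0.89 ± 0.70), and none passed the test. All 5 called RNAs were among the 26 members with a mean of at least 100, a division chosen after the values were seen. The 34 members below it had 0 calls and a median of 0.31. The count changed when single libraries were left out: it was 0 without conv-dSVA_D replicate 1 or replicate 2, 1 without conv-dSVA_F&D replicate 2, 13 without conv-dSVA_F&D replicate 1, and 2 without conv-dSVA_F replicate 1 or replicate 2. Calls over all genes moved as well, with 482 genes in the fit of all libraries, 0 without conv-dSVA_D replicate 1 and 42 without conv-dSVA_D replicate 2. The differences of the 5 RNAs were each 0.61 or more without either of these libraries, and the median of the members was 0.50 and 0.59. Without conv-dSVA_F&D replicate 2 this median was 0.34, and without conv-dSVA_F&D replicate 1 it was 0.80. Without conv-dSVA_F&D replicate 2 the differences of the 5 RNAs ranged from 0.53 (Snora78) to 0.93 (Snora17), with Snord17 at 0.58. DESeq2 on the recovered reads called 14 members and 1031 of all genes, and limma without a variance trend called 0 of both.

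Comparing conv-dSVA_F with conv-dSVA_D, most members again had positive differences, and 1 passed the test. Snora73b was higher in conv-dSVA_F by 0.78 ± 0.15 (limma, adjusted p = 0.0379), the only call among 60 members, against 1.08% of all genes called higher and 0.262% called lower. At an unadjusted p under 0.05 limma gave 14 higher members and 1 lower member, against 10.3% and 6.38% of all genes. The median difference was 0.53 (-0.01 over all genes tested), with 51 members positive. This median was 0.25 without conv-dSVA_F replicate 1 and 0.71 without conv-dSVA_F replicate 2. The Snora73b difference was 0.59 and 0.97 in these 2 fits. The groups did not overlap for 35 higher and 2 lower members, against 26.4% and 25.6% of all genes. Scarna13 (-0.29 ± 0.21) and Snord85, whose levels are given with the next comparison, were the 2 that lay lower in conv-dSVA_F, and neither passed the test. The call was lost without conv-dSVA_F replicate 1 or without conv-dSVA_D replicate 1 or replicate 2, and calls over all genes fell in these fits too. More members, and more of all genes, were called without conv-dSVA_F&D replicate 1 or replicate 2. Without conv-dSVA_F replicate 2 more members but fewer of all genes were called. This comparison shares its conv-dSVA_D libraries with the preceding one, so the 2 are not independent.

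Comparing conv-dSVA_F&D with conv-dSVA_F, the members had no common direction. The median difference was 0.07 (-0.01 over all genes tested), with 32 positive and 28 negative members. The groups did not overlap for 9 higher and 9 lower members, against 23.8% and 25.5% of all genes. Snord85, a C/D box RNA, was the only call, against 1.71% of all genes called higher and 2.21% called lower. At an unadjusted p under 0.05 limma gave 3 higher members and 1 lower member, against 9.78% and 10.9% of all genes. Snord85 was at 43.0 and 57.1 normalized counts in conv-dSVA_F&D, 8.51 and 8.12 in conv-dSVA_F, 47.0 and 27.8 in conv-dSVA_D, and 29.5 in the wild type. These values rest on 47 and 41 reads in conv-dSVA_F&D and 10 and 8 reads in conv-dSVA_F. Both conv-dSVA_F libraries were below all others, and the difference between conv-dSVA_F&D and conv-dSVA_F was 2.44 ± 0.56 (limma, adjusted p = 0.0458). The Snord85 call was lost with edgeR (2.57, adjusted p = 0.0519), and without any 1 of the 6 converted libraries, where the difference stayed between 2.24 and 2.64. Leaving out conv-dSVA_F&D replicate 1 or replicate 2 gave calls for other members. Calls over all genes rose without replicate 1 and fell without replicate 2.

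The moderated F test in limma for a difference of any kind between the converted groups (Benjamini-Hochberg adjustment) called Snora73b, Snora17, Snord104, Snora78 and Snord17, 5 of 60 members against 5.58% of all genes. By this limma test Snora17 had an adjusted p of 0.0223 and Snord17 one of 0.0494. Of the 5 Cajal body members, limma called 0, with 2 at an unadjusted p under 0.05. The count fell without any 1 of the conv-dSVA_F and conv-dSVA_D libraries or without conv-dSVA_F&D replicate 2. It rose without conv-dSVA_F&D replicate 1. Calls over all genes moved in the same direction each time.

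The converted groups were compared as a mean with the single wild-type library, whose own spread is not measured and was taken as that of the converted groups. Snora73b was lower in the converted groups by a log2 difference of -1.41 ± 0.16 (limma, adjusted p = 0.0150). Snora57 differed by -1.07 ± 0.19 (limma, adjusted p = 0.0396), Snord94 by -1.20 ± 0.22 (limma, adjusted p = 0.0430) and Snora78 by -0.77 ± 0.15 (limma, adjusted p = 0.0486). These 4 of 60 members compare with 0.525% of all genes called lower, and 0 of 60 were called higher by limma, against 0.623% of all genes. At an unadjusted p under 0.05 there were 25 lower and 0 higher members, against 8.52% and 10.2% of all genes, and edgeR and DESeq2 also called 0 higher. The median difference was -0.86 (-0.01 over all genes tested), with 54 negative. H/ACA box members had a class median of -1.12, C/D box members -0.84 and Cajal body members -0.40. The wild-type library lay above all 6 converted libraries for 35 members and below them for 0, against 19.0% and 18.8% of all genes. The most negative values that missed the threshold were those of Snora15 (-2.58 ± 0.60), Snord42a (-2.53 ± 1.09) and Snord66 (-1.96 ± 0.61). The 6 members with a positive difference were led by Snord91a (1.07 ± 0.97), and none of the 6 passed the test. The count rose without either conv-dSVA_F&D library and fell without any 1 of the conv-dSVA_F and conv-dSVA_D libraries. Calls over all genes moved in the same direction each time. In these fits the median difference of the members ranged from -0.94 (without conv-dSVA_F&D replicate 2) to -0.72 (without conv-dSVA_F&D replicate 1). edgeR called 9 members and 305 of all genes, and DESeq2 called 14 members and 847 genes, against 175 genes by limma.

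**Figure D4:**
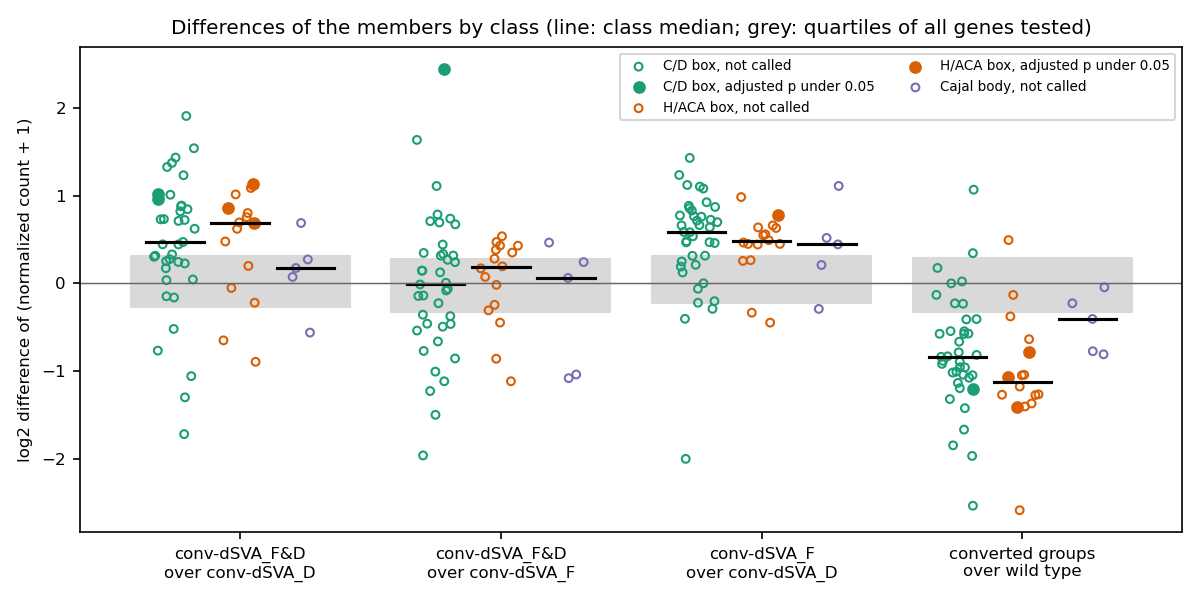
Log2 difference of each of the 60 members (circles, vertical axis) in 4 comparisons (horizontal axis), coloured by class, with filled circles for adjusted p under 0.05, black lines at class medians and grey bands for the quartiles of all genes tested. The members centre on 0.55 for conv-dSVA_F&D over conv-dSVA_D, 0.07 for conv-dSVA_F&D over conv-dSVA_F, 0.53 for conv-dSVA_F over conv-dSVA_D and -0.86 for converted groups over wild type.

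Some other measures differed between the libraries as well. The summed level of 8 feeder fibroblast markers was 119 and 198 normalized counts in conv-dSVA_F&D, 139 and 119 in conv-dSVA_F, 86.4 and 80.8 in conv-dSVA_D, and 347 in the wild type. Like the share of reads held by all members together, it was highest in the wild type and lowest in the conv-dSVA_D pair. Of these 8 markers 4 averaged at least 10, and Col1a2, Col3a1, Postn, Dcn and Lum were each at 0 in at least 1 library. The summed level of 6 primitive endoderm markers was 186 and 152 in conv-dSVA_F&D, 310 and 88.4 in conv-dSVA_F, 78.7 and 72.7 in conv-dSVA_D, and 108 in the wild type. The conv-dSVA_D pair was again lowest, but the wild type was not highest. Of these 6 markers 5 averaged at least 10, and Foxa2 was at 0 in at least 1 library. Other lists did not follow the members. The sum of 6 trophoblast markers was lowest in the wild type (670) and highest in conv-dSVA_F&D replicate 2 (1263). The sum of 6 neuron markers was lowest in conv-dSVA_F&D replicate 1 (843) and highest in conv-dSVA_F replicate 2 (1915). The 7SK RNA, the most abundant gene in 7 of 7 libraries, took 3.41% and 4.76% of reads in conv-dSVA_F&D, 3.65% and 3.76% in conv-dSVA_F, 4.05% and 3.65% in conv-dSVA_D, and 5.10% in the wild type. Its share was highest in the wild type but not lowest in conv-dSVA_D. Other annotated snoRNA and scaRNA genes outside the 60 (72 tested, most with predicted-gene names) had medians of 0.35 for conv-dSVA_F&D over conv-dSVA_D and -1.01 for converted groups over wild type. The snRNA genes (31 tested) had medians of -0.10 and -0.49, miRNA genes (28) -0.14 and -0.49, and long noncoding genes (803) -0.08 and -0.18. Protein-coding genes (12713) had medians of 0.00 and 0.01. The misc_RNA, ribozyme and scRNA genes (11 tested) had medians of 0.43 and -0.84, with 2 called higher in the first comparison and 0 called in the second by limma. Medians near those of the members (0.55 and -0.86) were therefore found for other snoRNA and scaRNA genes and for this small class. Those of the long noncoding and protein-coding genes were nearer to 0. The snRNA and miRNA medians were slightly negative in the first comparison, and against the wild type they lay between 0 and the median of the members. There 24 of 31 snRNA, 20 of 28 miRNA and 65 of 72 other snoRNA and scaRNA genes were negative, against 51.2% of all genes. Limma called 10 of these 72 genes, 4 of the 31 snRNA genes and 0 of the 28 miRNA genes lower in the converted groups. By the same fit 4 of 60 members and 0.525% of all genes were called lower. For conv-dSVA_F&D over conv-dSVA_D it called 3 of the 72 higher and 0 lower, against 1.96% and 1.21% of all genes. The part of these cell type markers, of 7SK and of depth in the results was not tested.

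Host genes were taken as the longest gene of another kind on the same strand whose span holds the RNA. Such a host was found for 50 members, from 41 genes, and 10 had none. Among these 10 were Snord13, Snord118, Scarna2, Snora57, Snora17, Snora43 and Snord104, and also Snord94 and Snord73b, which matched no name in this annotation. The rule depends on annotated spans, so lacking a host here does not by itself mean that an RNA has its own promoter. Of the hosts, 39 could be tested, giving 46 pairs of member and host. Rpl23a, which encodes a ribosomal protein and holds Snord42a, Snord42b and Snord4a, was the only host called in the comparison of conv-dSVA_F&D with conv-dSVA_D, and it was higher in conv-dSVA_F&D (0.51 ± 0.11, limma, adjusted p = 0.0470). Beside this 1 of 39 hosts stand 1.96% of all genes called higher and 1.21% called lower. At an unadjusted p under 0.05 limma gave 10 higher hosts and 1 lower host, against 10.7% and 9.11% of all genes. Positive differences were found for 27 of the 39 hosts, against 49.7% of all genes. Rpl23a (-0.63 ± 0.12, limma, adjusted p = 0.0486) and Tpt1, which holds Snora31 (-0.93 ± 0.12, limma, adjusted p = 0.0201), were lower in the converted groups than in the wild type. These 2 of 39 hosts compare with 0.525% of all genes called lower. Limma gave 5 higher and 15 lower hosts there at an unadjusted p under 0.05, against 10.2% and 8.52% of all genes. Negative differences were found for 27 of the 39 hosts, against 51.2% of all genes. The host call in the first of these comparisons was lost without conv-dSVA_F&D replicate 2, or without any 1 of the conv-dSVA_F and conv-dSVA_D libraries. Against the wild type the host count was 5 without conv-dSVA_F&D replicate 2, 1 without conv-dSVA_F replicate 1, and 0 without conv-dSVA_F replicate 2 or without conv-dSVA_D replicate 1 or replicate 2. None of the 3 members in Rpl23a passed the test, nor did Snora31 (-1.40 ± 0.44 against wild type). Rcc1, Snhg3, Snhg9 and Snx5, which hold called RNAs, did not pass it either. Rcc1 differed by -0.02 ± 0.12 for conv-dSVA_F&D over conv-dSVA_D and by -0.06 ± 0.13 for converted groups over wild type, beside 0.86 and -1.41 for Snora73b. Snhg3, a noncoding gene whose span also holds Snora73b, differed by 0.29 ± 0.16 (limma, adjusted p = 0.334) and -0.22 ± 0.17 (limma, adjusted p = 0.543), with the same signs as Snora73b and smaller sizes. Rcc1 was at 3318 and 3700 normalized counts in conv-dSVA_F&D, 3238 and 3767 in conv-dSVA_F, 3486 and 3631 in conv-dSVA_D, and 3675 in the wild type. Snhg9 differed by 0.05 ± 0.30 and -0.07 ± 0.32 in the same comparisons, beside 0.69 and -0.77 for Snora78. Snx5 differed by 0.12 ± 0.11 and -0.44 ± 0.12, beside 1.02 and -1.13 for Snord17. The median over the 39 hosts was 0.18 for conv-dSVA_F&D over conv-dSVA_D and -0.27 for converted groups over wild type. The member had a larger value than its host in 36 of 46 pairs in the first comparison and a smaller one in 39 of 46 in the second. Across the 46 pairs the Spearman correlation of member with host differences was 0.53 in the first and 0.07 in the second, as a description over pairs that share libraries and, in part, hosts. Unspliced host transcripts also give reads over an intronic RNA, and these counts cannot separate them.

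**Figure D5:**
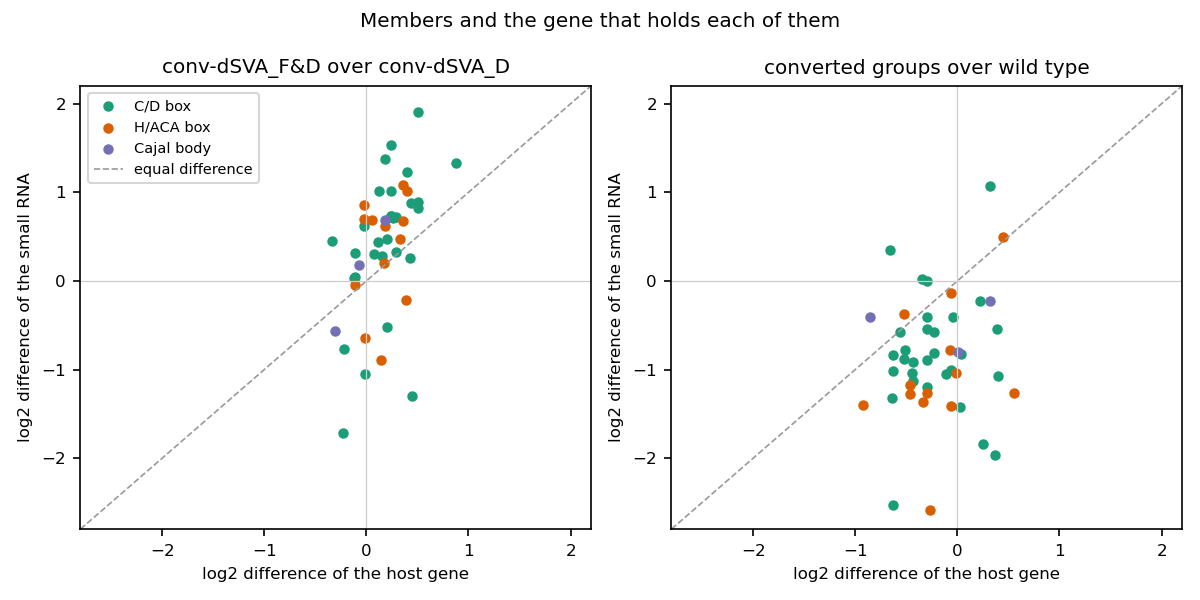
Log2 difference of each RNA (vertical axis) against that of the gene that holds it (horizontal axis) for 46 pairs, for conv-dSVA_F&D over conv-dSVA_D (left) and converted groups over wild type (right), with the line of equal difference dashed. In the left panel 36 pairs lie above that line, and in the right panel 39 pairs lie below it.

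Position adds limits to some values. Members on the same strand as, and partly within, annotated exons were Snora15 (77.9% of its span), Snora73a (77.6%), Snora2b (67.2%, Kansl2), Snord42b (31.9%, Rpl23a) and Snord66 (1.33%, Eif4g1). Annotated genes lie antisense to Snora73a and Snora73b (Gm17300), Snora78 (Rps2), Snora57 (Lbhd1), Snora23 (1600010M07Rik), Snord8 (Gm26590), and Snord42a and Snord4a (Tlcd1). The library kit marks strand, but the strand setting of the counting is not known from the sources used here, so reads of these antisense genes and of the members cannot be told apart.

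Protein genes of the pathway were tested in the same fits. Of 38 genes for snoRNP core, assembly, Cajal body and RNA-end proteins, limma and edgeR called 0 in conv-dSVA_F&D over conv-dSVA_D, with 3 higher and 6 lower at an unadjusted p under 0.05 in limma. The shares of all genes were 1.96% and 1.21% for calls and 10.7% and 9.11% at the unadjusted threshold. DESeq2 called 1 higher and 1 lower there. For conv-dSVA_F over conv-dSVA_D limma, edgeR and DESeq2 each called 0, and limma gave 3 higher and 4 lower genes at an unadjusted p under 0.05, against 10.3% and 6.38% of all genes. The 4 C/D box core proteins had differences of -0.21 to 0.02 for conv-dSVA_F&D over conv-dSVA_D and of -0.55 to -0.06 for converted groups over wild type. Fbl, the fibrillarin methyltransferase, had the most negative of these values in both. The 4 H/ACA box core proteins ranged from -0.39 (Nhp2) to 0.18 (Dkc1, the pseudouridine synthase dyskerin) and from -0.23 to 0.14. Coil, the scaffold of Cajal bodies, differed by 0.26 and -0.45, and Wrap53, which brings Cajal body RNAs to them, by -0.22 and 0.01, and none of these genes passed the test. Tent4b, a noncanonical poly(A) polymerase that acts on snoRNA ends, was lower in conv-dSVA_F&D against conv-dSVA_F (-0.77, limma, adjusted p = 0.0229). It was the only 1 of the 38 genes called there by limma, against 1.71% of all genes called higher and 2.21% called lower. At an unadjusted p under 0.05 limma gave 4 higher and 7 lower genes there, against 9.78% and 10.9% of all genes. Usp36, a nucleolar deubiquitinase, was higher in the converted groups than in the wild type (0.83, limma, adjusted p = 0.0429). Beside Usp36 stand 0.623% of all genes called higher against the wild type by limma. Of 18 Snhg and Gas5 host RNAs, Snhg8 was higher in conv-dSVA_F&D against conv-dSVA_D (0.81, limma, adjusted p = 0.0256). Snhg1 (-0.84, limma, adjusted p = 0.0390) and Snhg8 (-0.85, limma, adjusted p = 0.0457) were lower in the converted groups than in the wild type. Beside this 1 of 18 called higher stand 1.96% of all genes, and beside the 2 of 18 called lower 0.525%. The medians of the 18 were 0.27 and -0.43 in these comparisons.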

How the data were processed

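Gene levels were measured by stranded total RNA-seq of 7 mouse stem cell libraries; 10 samples are labelled in the series. The deposited signal is normalized counts: the authors divided the counts of every gene by a size factor of the library. Per the submitters' processing notes, the build was mm10 and the tools named were featureCounts 1.6.3, STAR 2.7.3, Trimmomatic 0.36, DESeq2, deepTools 3.1.0 and Picard 2.18.20; roles, strand setting and annotation are not given in the sources used here. Column-purified RNA and this library type retain short RNAs incompletely, so levels describe what reached the library. The smallest step in each column gave back the whole reads, and 100% of values above 0 came within 0.1 read of whole numbers.

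The test was limma 3.58.1 in R 4.3.3 (lmFit, eBayes with trend) on log2(normalized count + 1), over 15240 genes with a mean of at least 10, with 4 group means, residual degrees of freedom of 3 and prior degrees of freedom of 6.80. Two-sided p-values were adjusted by Benjamini-Hochberg over these genes, with 0.05 as threshold. All differences are on this scale, which understates changes of low genes. edgeR 4.0.16 and DESeq2 1.42.0 on recovered reads, other pseudocounts and filters, no variance trend, fits of both sides only, and each library left out were alternatives; the limma and edgeR steps were tested on simulated data. Positions, hosts and sequences came from GENCODE M21 (GRCm38) for 58 members and from RefSeq (GRCm38.p6) for the positions of 2. No sequence is given for Snord94, Snord73b or members on chromosome 18.

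The members and lists were chosen with earlier results of these data known. Named genes were the 6, 6 and 4 members with the highest mean per class, up to 8 called members per direction and comparison, hosts of these, core proteins and called pathway genes, the 2 members above and 2 genes below the minimum, and 3 members each with the largest and smallest spread. Other members named lay at the end of a range, did not overlap between groups, or share position or sequence, and were chosen after their values were seen. A host gene and some sequences and positions that this rule would name are not reported here.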

Additional observations from a re-analysis of the deposited data

How the results depend on the processing

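No paired analysis was possible because the labels give no replicate numbers. With the single wild-type library left out, the comparison with the wild type could not be fitted. Each count of called members depended on the fit. Without a filter on low values, 0 members were called for conv-dSVA_F&D over conv-dSVA_D, 0 for conv-dSVA_F&D over conv-dSVA_F, 0 for conv-dSVA_F over conv-dSVA_D, 0 for any difference among converted groups and 1 for converted groups over wild type. Of all genes this fit called 0 in every test among the converted groups and 906 against the wild type. Without a variance trend the count was 0 in all 5 tests, and the same fit called at most 1 of all genes in any of them. In the main fit these counts were 5, 1, 1, 5 and 4. DESeq2 called 14, 3, 12 and 14 members for conv-dSVA_F&D over conv-dSVA_D, conv-dSVA_F over conv-dSVA_D, any difference and converted groups over wild type. It called 1031, 729, 1888 and 847 of all genes in these tests, against 482, 205, 850 and 175 in the main fit. edgeR called 0 for conv-dSVA_F&D over conv-dSVA_F and 9 for converted groups over wild type, beside 553 and 305 of all genes. With only the libraries of both sides, 3 were called for conv-dSVA_F&D over conv-dSVA_D, 0 for conv-dSVA_F&D over conv-dSVA_F, 3 for conv-dSVA_F over conv-dSVA_D and 0 for converted groups over wild type. Of all genes these fits called 246, 200, 504 and 0. A pseudocount of 5 gave 7 for converted groups over wild type, one of 0.5 gave 3 for any difference, and a minimum mean of 50 gave 0 for conv-dSVA_F&D over conv-dSVA_F. Beside these stand 275, 768 and 657 of all genes. The causes were not tested.

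Leaving out each library in turn gave 0 to 13 members for conv-dSVA_F&D over conv-dSVA_D, 0 to 2 for conv-dSVA_F&D over conv-dSVA_F, 0 to 3 for conv-dSVA_F over conv-dSVA_D, 0 to 14 for converted groups over wild type and 0 to 12 for any difference. Of 160 values of called members under other settings, 88 stayed past the threshold, 72 missed it and 0 changed sign. Snora73b against the wild type missed it in 3 of its settings, and Snord85 in 10. Settings that changed only the filter, the variance model or libraries outside a comparison left the difference of each RNA the same. No sign could change there. The median difference of the members kept its sign in 3 of the 4 comparisons. For conv-dSVA_F&D over conv-dSVA_F this median ranged from -0.22 to 0.38.

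Called hosts, with settings chosen after the data were seen, numbered 6, 3, 2 and 10 with DESeq2 for conv-dSVA_F&D over conv-dSVA_D, conv-dSVA_F&D over conv-dSVA_F, conv-dSVA_F over conv-dSVA_D and converted groups over wild type, and 4 with edgeR for the last. Of all genes DESeq2 called 1031, 1206, 729 and 847 in these comparisons, and edgeR called 305 in the last. Leaving out each library in turn gave 0 to 1, 0 to 2, 0 to 0 and 0 to 5 hosts. The host with the highest mean in place of the longest one changed no count. The median class share over the 7 libraries was 0.0453% for C/D box, 0.108% for H/ACA box and 0.0672% for Cajal body members, and without the highest member of each class 0.0274%, 0.0386% and 0.0280%. Depth limits the members with a mean under 100, where 1 read is worth up to 1.39 normalized counts.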
